A study of Bos taurus with 18 samples.

Results

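The genes described here are 38 genes of the extracellular matrix and of the stromal cells that make it, taken by gene name from a count table of 27270 cattle genes. Of these, 37 were found and all 37 passed the low-count filter that left 22202 genes for testing. TIMP1, the remaining name, did not match a gene name in the table and was not analysed here. The RNA came from rumen papillae, the projections that line the forestomach of cattle, of 9 rumen-cannulated Holstein cows that were not lactating. Of these cows, 5 were controls and 4 received PHY, a supplement that the labels do not spell out, and the labels do not say whether PHY was already given when the forage biopsy was taken. Biopsies were taken while the cows ate 100% forage and after they moved to a high-grain diet with 65% concentrate. The libraries of the control cows are called forage_control and grain_control (5 each), and those of the PHY cows forage_PHY and grain_PHY (4 each). No label ties a library to a cow, so libraries of 1 cow on both diets entered as independent, and p-values measure only the spread between these libraries.

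A rumen papilla has a core of connective tissue with vessels and fibroblasts, covered by a layered epithelium that rests on a basement membrane. Fibroblasts lay down the fibrils of collagens I, III and V and the beaded filaments of collagen VI, and small proteoglycans such as decorin and lumican bind to the fibrils and regulate their assembly. The basement membrane is a sheet of collagen IV, laminins, nidogen and perlecan beneath the epithelium and around vessels. In a biopsy of whole tissue, the summed RNA of these genes depends both on how much core was taken and on how active its cells were; fewer cells of a type and less RNA per cell cannot be told apart in such bulk samples.

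Total reads, in units of 1000000 (M), ran from 15.8 M to 34.5 M on forage and from 3.95 M to 23.9 M on grain. The summed CPM (reads per 1000000 of a library) of 144 olfactory receptor genes, whose usual site is the nose, was 16.3 to 65 on forage and 32.9 to 345 on grain, with grain_PHY 1, grain_control 1 and grain_control 4 the highest at 345, 169 and 125. These were also the 3 shallowest libraries. Epithelial markers were abundant on both diets: KRT5, a keratin of basal cells, averaged 4040 ± 724 CPM on forage and 2940 ± 1310 on grain (SD, n = 9 each). Markers of the core were present too, at 23.1 ± 6.44 and 18.9 ± 2.91 CPM for the endothelial adhesion molecule PECAM1 and at 59.8 ± 45.7 and 50.8 ± 22.7 CPM for ACTA2, the actin of smooth muscle.

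The content of matrix RNA differed more between forage biopsies than between the diets. On total reads, the CPM summed over the 37 genes were 2210, 1780, 1330, 1240 and 5240 in forage_control 1 to 5 and 5900, 5630, 1100 and 2850 in forage_PHY 1 to 4. On grain the sums were 3930, 3600, 3630, 3980 and 2840 in grain_control and 3780, 4730, 3850 and 4200 in grain_PHY. In shares, the genes took 0.11% to 0.59% of a library's reads. The highest forage library held 5.36 times the lowest, and the highest grain library 1.67 times the lowest. All 9 grain libraries lay inside the forage range: forage_control 5, forage_PHY 1 and forage_PHY 2 stood above every grain library, and 4 of the forage_control libraries and forage_PHY 3 below every one.

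The scaling of the libraries bore on this spread. On the effective library size of edgeR's TMM normalization, which is used for single genes below, the forage range was 4.76-fold and the grain range 3.18-fold, as grain_PHY 1 moved from 3780 to 1620 CPM. Its TMM factor was 2.35, the highest of the 18, and it had the fewest reads (3.95 M). The mean on grain was 1.27 times that on forage by total reads and 0.981 times by effective size, so the direction of the difference in means turned with the scaling. By group the effective-size means were 2790 ± 1750 CPM in forage_control, 4300 ± 2250 in forage_PHY, 3110 ± 519 in grain_control and 3750 ± 1560 in grain_PHY (SD). The forage libraries with the highest sums, forage_control 5 and forage_PHY 1 and 2, were also the deepest of the 18, at 33.9, 32 and 34.5 M reads, while forage_control 4 had 31.2 M and a sum of 1240. The part of depth in these sums was not tested.

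**Figure D1:**
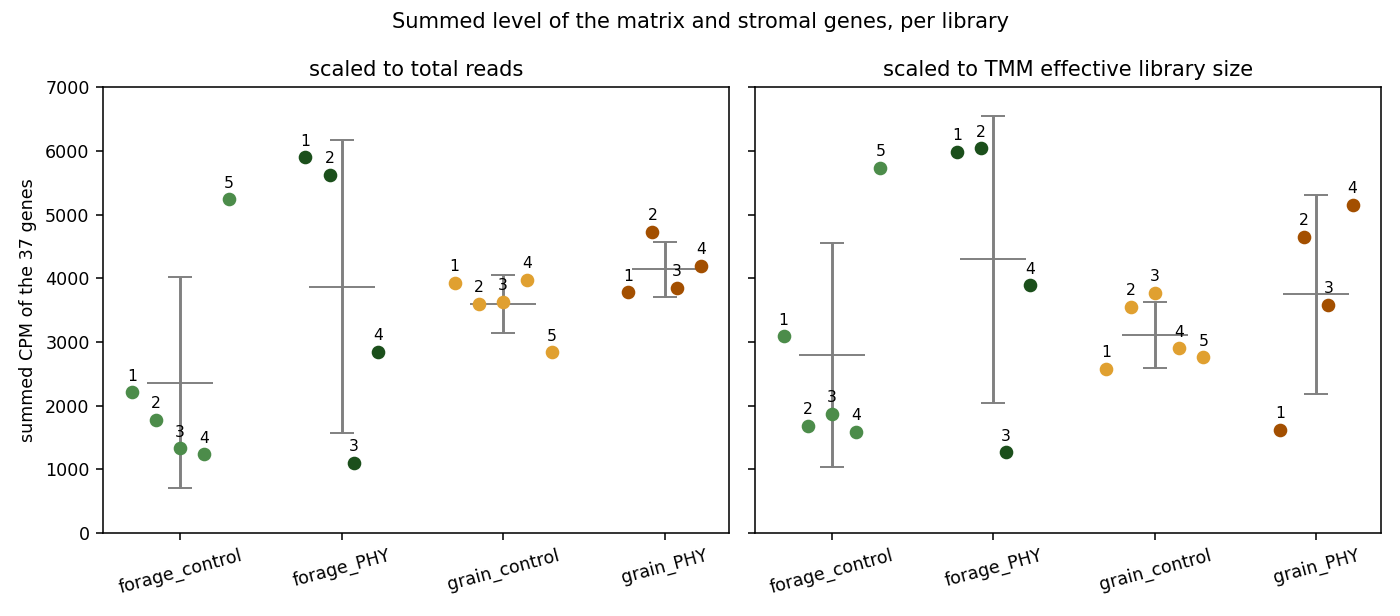
Summed CPM of the 37 genes in each library, by group, scaled to total reads (left) and to the TMM effective library size (right); points are libraries numbered by replicate, grey bars the mean ± SD. The forage libraries run from 1100 to 5900 on total reads, and grain_PHY 1 falls from 3780 to 1620 on the effective size.

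On the effective size, the same 3 forage libraries led across most of the genes. Those 3 were picked from the members' own sum, so the following counts describe how widely the order was shared and are no test. In 27 of 37 genes (73%) forage_control 5, forage_PHY 1 and forage_PHY 2 were the highest 3 of the 9 forage libraries, against 3.7% of all genes tested and 6.98% of the genes that averaged 5 CPM or more. They led in all 3 collagen VI genes, all 4 proteoglycans, 6 of 7 fibrillar and fibril-associated collagens and 7 of 8 glycoproteins. Among basement membrane genes they led in 4 of 9, and in neither of the 2 PDGF receptors. The genes with another order were COL14A1, COL15A1, COL18A1, LAMA4, LAMB1, HSPG2, POSTN, TIMP3, PDGFRA and PDGFRB. This difference between roles depended on the scaling. On total reads the same libraries led in every basement membrane gene and in both receptors, and only COL14A1, POSTN and TIMP3 had another order. At the other end, forage_PHY 3 was the lowest forage library in 19 of 37 genes and forage_control 4 in 8. On grain, also on the effective size, grain_PHY 1 was the lowest library in 30 of 37 genes and grain_PHY 4 the highest in 17. Their TMM factors were 2.35 and 0.816, and this order depended on the scaling. On total reads the sum of grain_PHY 1 was 3780 CPM, inside the grain range of 2840 to 4730.

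**Figure D2:**
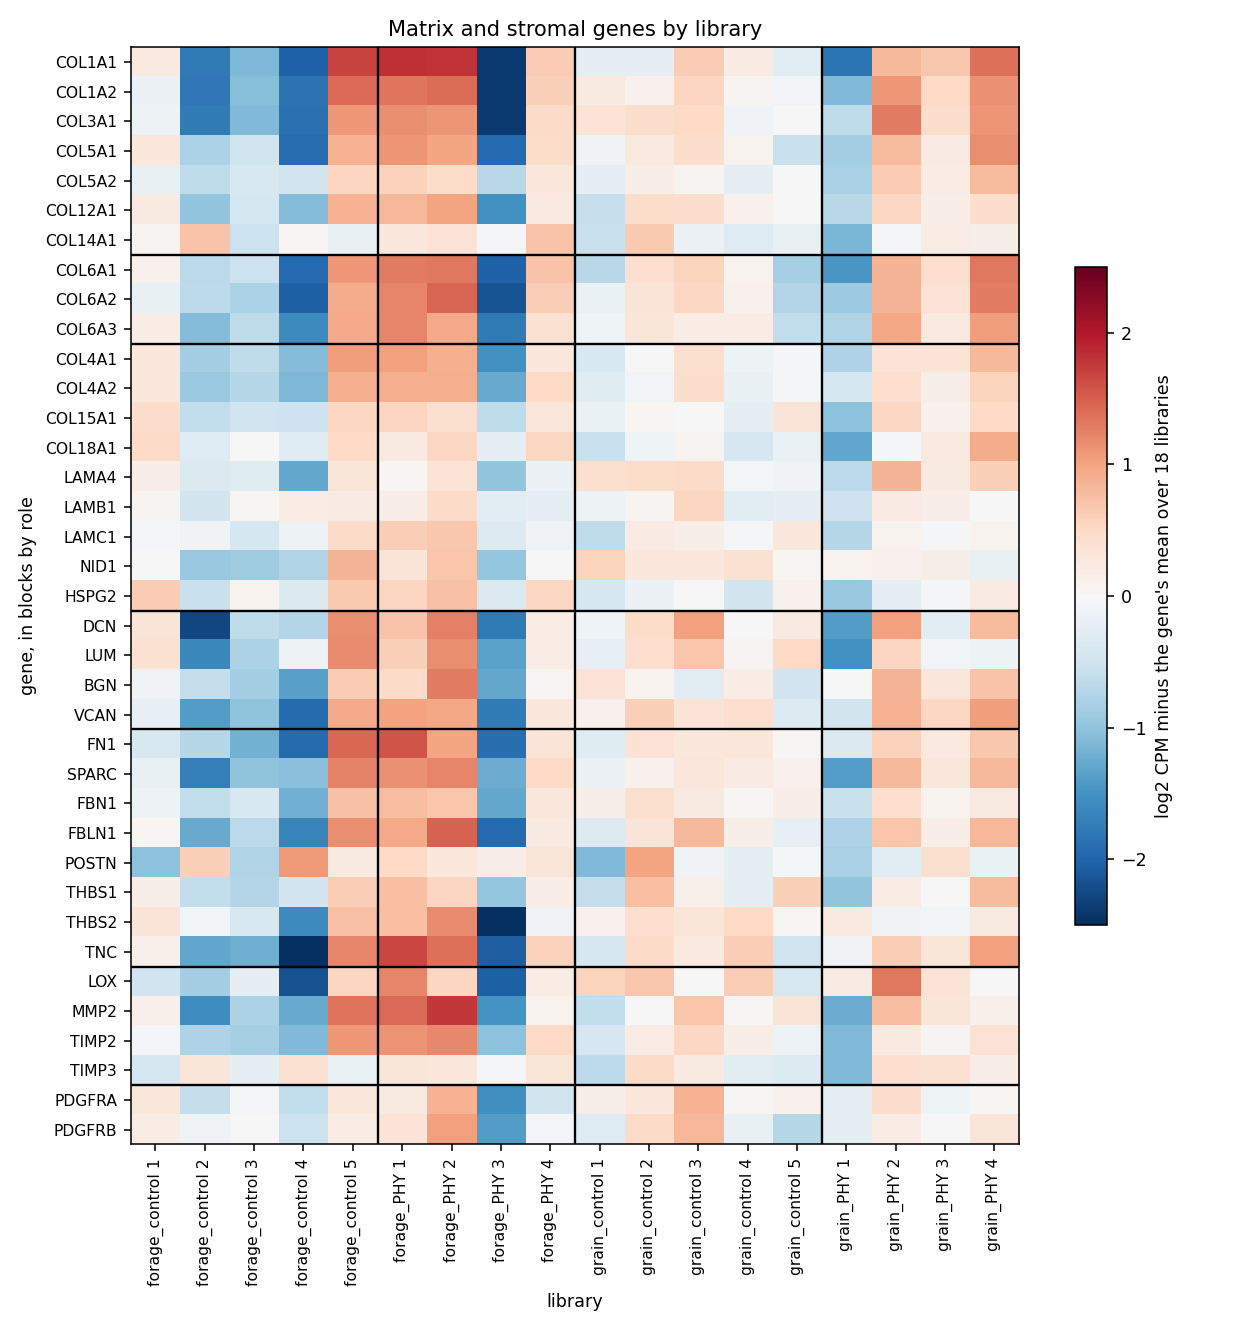
Log2 CPM of each gene (rows, in blocks by role from fibrillar collagens at the top to stromal receptors at the bottom) in each library (columns), minus the gene's mean over the 18 libraries; red is above the mean and blue below. forage_control 5, forage_PHY 1 and forage_PHY 2 are red in most rows, and forage_PHY 3, forage_control 4 and grain_PHY 1 blue. CPM are on the effective library size.

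The fibrillar collagens, which bear the tension of the tissue, and the fibril-associated collagens together carried the largest part of the summed reads. On the effective size their joint sum varied 8.08-fold on forage and 3.97-fold on grain. Levels here are compared across libraries and not between genes, since counts also depend on transcript length. COL3A1 (ENSBTAG00000021466), the collagen III of pliable tissue, had 365, 120, 188, 110 and 854 CPM in forage_control and 899, 866, 76.8 and 560 in forage_PHY. Its grain_control libraries had 511, 543, 564, 376 and 397 CPM and its grain_PHY libraries 259, 991, 543 and 862. The forage libraries thus reached both below and nearly as high as those on grain. COL1A1 (ENSBTAG00000013103), the α1 chain of collagen I, had 269, 67.4, 105, 56.1 and 732 CPM in forage_control and 810, 799, 43.3 and 353 in forage_PHY. On grain it had 196, 194, 353, 262 and 188 CPM in the controls and 64.2, 401, 363 and 590 with PHY. The highest forage library held 18.7 times the COL1A1 of the lowest, against 9.18 times on grain, where grain_PHY 1 alone was under 188.

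COL1A2, which encodes the partner chain of collagen I, ran from 30.5 to 427 CPM on forage and from 74.6 to 354 on grain. COL5A1 and COL5A2 encode collagen V, which is buried inside the fibrils and sets their width. COL5A1 spanned 8.29-fold on forage and COL5A2 2.40-fold, although both encode chains of that molecule. Of the fibril-associated collagens, which sit on the surface of fibrils, COL12A1 spanned 5.62-fold on forage and COL14A1 2.40-fold. COL14A1 had 77.3, 121, 50.5, 76.3 and 64.6 CPM in forage_control and 87.9, 94.6, 70.5 and 121 in forage_PHY. On grain its values were 49.7, 116, 66.1, 58.9 and 64.3 CPM in the controls and 33.1, 70.8, 83.7 and 80.8 with PHY. COL14A1 did not share the order of the other fibrillar and fibril-associated collagens: it was lower in forage_control 5 than in forage_control 2.

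Collagen VI forms beaded filaments around cells and between fibrils, and its 3 chains varied together. COL6A2 had 76.1, 55.2, 50.1, 21 and 165 CPM in forage_control and 202, 237, 19.5 and 134 in forage_PHY. The grain values were 77.4, 108, 125, 93.7 and 52.4 CPM in the controls and 46.2, 157, 112 and 211 with PHY. COL6A3 had 103, 42.8, 59, 30.1 and 175 CPM in forage_control and 212, 175, 26.9 and 118 in forage_PHY. For both genes forage_PHY 3 and forage_control 4 were the lowest of all 18 libraries. On grain COL6A3 had 84.1, 112, 103, 103 and 59.7 CPM in the controls and 54.3, 178, 108 and 187 with PHY. On the effective size, the summed level of the 3 genes spanned 9.26-fold on forage and 4.58-fold on grain, with the forage and grain ranges overlapping.

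The basement membrane genes varied less. On the effective size their sum spanned 2.39-fold on forage, from 473 to 1130 CPM, and 2.54-fold on grain, from 398 to 1010. The lowest grain value was that of grain_PHY 1, whose TMM factor was 2.35, so the grain range depended on the scaling. HSPG2 (ENSBTAG00000017122) encodes perlecan, the large heparan sulfate proteoglycan of basement membranes. It had 280, 123, 193, 141 and 283 CPM in forage_control and 264, 301, 141 and 258 in forage_PHY. On grain it had 135, 163, 183, 131 and 196 CPM in the controls and 94.1, 155, 177 and 208 with PHY. In 5 of 9 forage libraries HSPG2 was above every grain library, while the other 4 lay among the grain values. COL18A1, the collagen that yields endostatin, had 198, 115, 142, 114 and 203 CPM in forage_control and 167, 204, 122 and 204 in forage_PHY. Its grain values were 97.7, 133, 149, 107 and 127 CPM in the controls and 58.4, 138, 170 and 273 with PHY, so that both the highest and the lowest library were on grain.

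LAMA4 (ENSBTAG00000008817) encodes the laminin α4 chain, which is typical of vessel walls and muscle. It had 28.5, 19.7, 20.5, 10.5 and 31.2 CPM in forage_control and 26.1, 32.3, 12.8 and 23 in forage_PHY. In grain libraries it had 33.4, 34.8, 35.5, 24.6 and 23.8 CPM in the controls and 15.8, 45.4, 29.5 and 38.1 with PHY. All grain libraries but grain_PHY 1 were above the forage median of LAMA4, yet 4 grain libraries lay inside the forage range. LAMB1 and LAMC1, the β1 and γ1 chains shared by many laminins, spanned 1.90-fold and 2.14-fold on forage. COL4A1 and COL4A2, the common collagen IV chains, spanned 5.90-fold and 4.55-fold, closer to the fibrillar collagens than to the laminins. NID1, which links the laminin and collagen IV networks, averaged 16.6 ± 8.32 CPM on forage and 19.4 ± 2.92 on grain, and COL15A1 57.3 ± 19.7 and 57 ± 16 (SD, n = 9 each).

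Among the proteoglycans, VCAN encodes versican, which holds water in loose connective tissue. VCAN had 53, 23.2, 30.7, 16.1 and 118 CPM in forage_control and 123, 119, 18.2 and 73.5 in forage_PHY. Its grain values were 65.6, 93, 77.4, 81.9 and 48.4 CPM in the controls and 44.5, 112, 88.1 and 127 with PHY. Every grain library was above 4 of the forage libraries, and grain_PHY 4 was above all of them. LUM, lumican, had 62.5, 15.7, 27.5, 43.7 and 109 CPM in forage_control and 72.6, 107, 18.8 and 54.6 in forage_PHY. On grain it had 41.7, 63.9, 77.4, 50.4 and 67.3 CPM in the controls and 16.7, 69.7, 45.7 and 43.7 with PHY. Lowest were forage_control 2, grain_PHY 1 and forage_PHY 3. DCN, decorin, spanned 11.6-fold on forage and 5.34-fold on grain and BGN, biglycan, was at 4.49 ± 2.87 and 5.13 ± 1.53 CPM.

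The glycoproteins fell into those that followed the fibrillar collagens and POSTN, which did not. SPARC, a collagen-binding protein of remodelling tissue, had 94.2, 32.8, 53.6, 52.1 and 255 CPM in forage_control and 237, 249, 45.1 and 152 in forage_PHY. The values on grain were 96.8, 115, 130, 123 and 116 CPM in the controls and 41.5, 188, 130 and 189 with PHY. POSTN, periostin, a matricellular protein that binds collagen and integrins, had 59.5, 183, 72.3, 254 and 142 CPM in forage_control and 172, 147, 137 and 150 in forage_PHY. Its highest forage library was forage_control 4, which had the lowest CPM of TNC and FN1. On grain POSTN had 56.3, 242, 115, 103 and 117 CPM in the controls and 69, 102, 160 and 109 with PHY. TNC, tenascin-C, a glycoprotein of remodelling matrix, had the widest range on forage of the 37 genes, from 11.8 to 237 CPM (20.1-fold). FN1, fibronectin, to which cells attach through integrins, ran from 20.3 to 231 CPM on forage and only from 60.5 to 124 on grain. THBS2, a thrombospondin, ran from 2.71 to 35.2 CPM on forage and from 14.6 to 21.8 on grain. FBN1 and FBLN1, which build and attach to elastic microfibrils, and THBS1 averaged 47.1 ± 23.6, 48.6 ± 37.3 and 66.5 ± 28.1 CPM on forage and 50.3 ± 8.84, 49 ± 17.5 and 72.1 ± 27.8 on grain.

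Of the genes that crosslink and turn over matrix, LOX encodes lysyl oxidase, the enzyme that starts the crosslinks of collagen and elastin. LOX had 4.23, 3.29, 5.13, 1.31 and 8.62 CPM in forage_control and 13.9, 8.63, 1.44 and 6.80 in forage_PHY. Its grain values were 8.82, 9.46, 6.02, 9.09 and 4.53 CPM in the controls and 6.82, 14.8, 7.51 and 6 with PHY. The lowest 4 forage libraries were below all on grain, and the highest, forage_PHY 1, was above all but grain_PHY 2. MMP2, a gelatinase that cleaves denatured collagen and collagen IV, had 41.1, 12.8, 21.8, 15.7 and 96.1 CPM in forage_control and 100, 128, 13.4 and 40.1 in forage_PHY. On grain MMP2 had 24.7, 37.7, 61, 38.3 and 47.3 CPM in the controls and 15.9, 64.5, 46.4 and 41 with PHY. TIMP2 and TIMP3 encode inhibitors of such proteases. TIMP2 spanned 4.95-fold on forage, with the same 3 libraries on top as MMP2. TIMP3, which is bound to the matrix, had 22, 36.2, 24.9, 38 and 26 CPM in forage_control and 36.1, 35.2, 28.6 and 36.2 in forage_PHY. On grain TIMP3 had 18.7, 40.9, 34.2, 24.6 and 23.2 CPM in the controls and 13.6, 39.4, 38.2 and 33 with PHY. Its 1.72-fold range was the narrowest on forage of the 37 genes.

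PDGFRA and PDGFRB encode the PDGF receptors, which mark fibroblasts and pericytes respectively. PDGFRA had 27.5, 14.9, 21.9, 14.8 and 27.5 CPM in forage_control and 26.6, 41.2, 7.86 and 16.5 in forage_PHY. On grain it had 25, 27.2, 41.5, 23.2 and 24.4 CPM in the controls and 19.4, 30.9, 21 and 23.5 with PHY. PDGFRB had 22.4, 18.6, 19.9, 13.5 and 22.3 CPM in forage_control and 25, 40.1, 7.53 and 19.1 in forage_PHY. Both receptors were highest on forage in forage_PHY 2 and lowest in forage_PHY 3. On grain PDGFRB had 15.8, 27.3, 35, 17.3 and 12 CPM in the controls and 16.6, 22.5, 19.6 and 24.2 with PHY. On the effective size, the 3 libraries that led in matrix RNA did not all lead in the receptors. This rested on near ties of forage_control 1 and forage_control 5, at 27.5 and 27.5 CPM of PDGFRA and 22.4 and 22.3 of PDGFRB. Their TMM factors were 0.716 and 0.912, and on total reads forage_control 5 was above forage_control 1 in both receptors.

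The spread of the genes within a diet was set beside that of all genes. The SD of log2 CPM was larger on forage than on grain for 33 of 37 genes (89.2%), against 35.1% of all genes tested and 27.5% of those that averaged 5 CPM or more. Its median was 0.97 on forage and 0.51 on grain for the 37 genes, and 0.33 and 0.43 for the genes of at least 5 CPM. The exceptions were COL14A1, COL18A1, LAMB1 and TIMP3. By role the medians on forage and grain were 1.31 and 0.70 for collagen VI and 1.18 and 0.59 for fibrillar and fibril-associated collagens. They were 1.11 and 0.59 for proteoglycans and 0.53 and 0.36 for the basement membrane. Each SD spans both arms of a diet. On total reads the count was 37 of 37, and leaving out 1 library at a time gave 31 to 35. The shares of all genes above are on the effective size with all libraries, and those for these other settings are not given here.

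**Figure D3:**
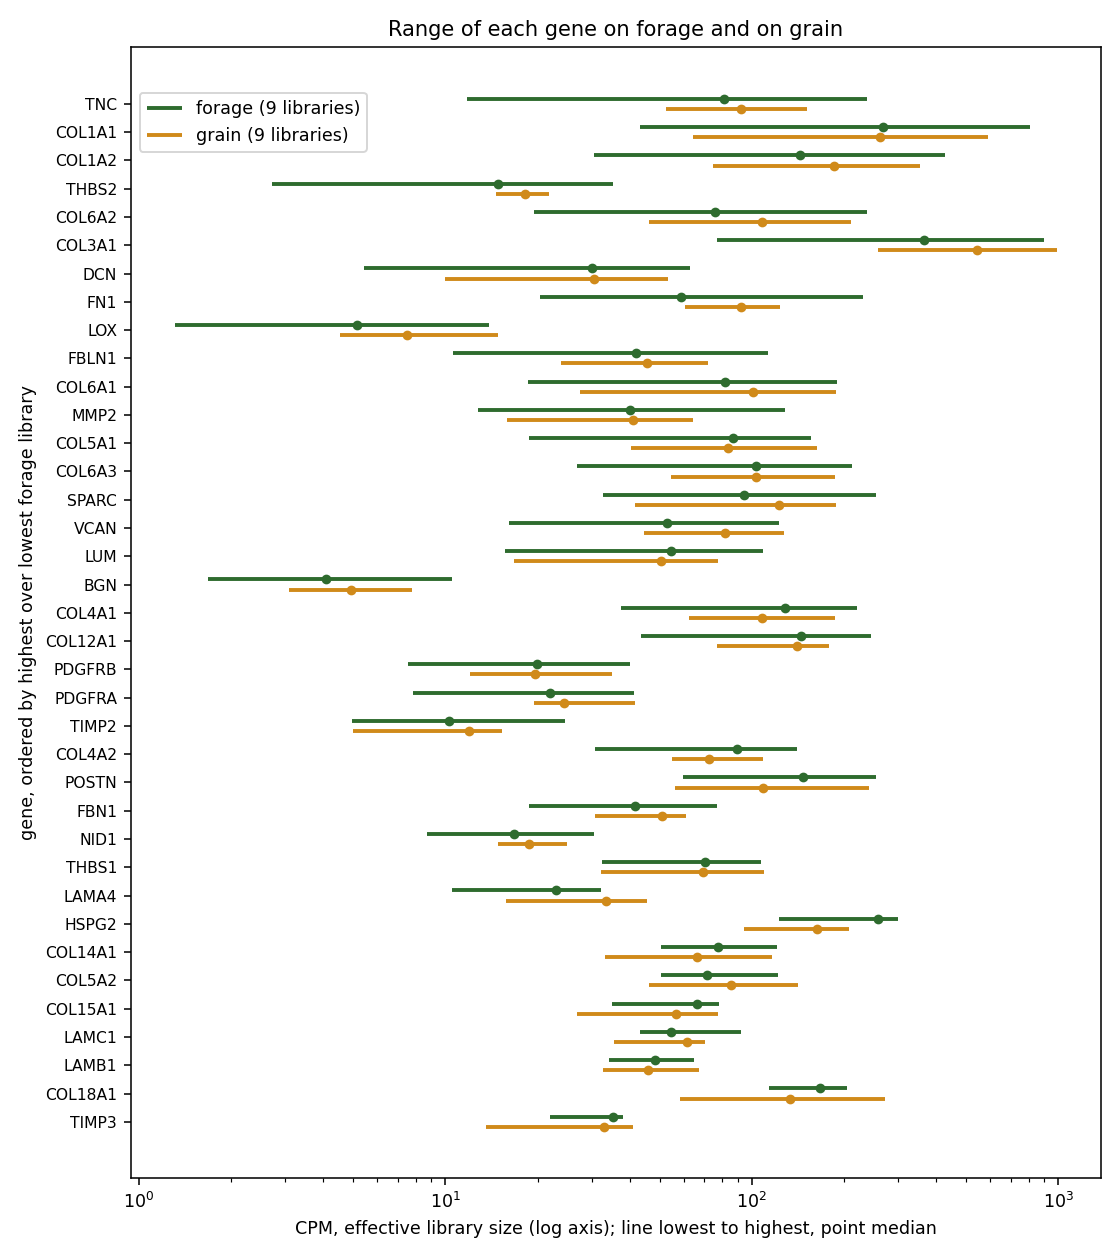
CPM of each gene on forage (green) and grain (orange), 9 libraries each, on a log axis; lines run from the lowest to the highest library and points are medians, with genes ordered by the highest over the lowest forage library. TNC (20.1-fold) and COL1A1 (18.7-fold) are at the top and TIMP3 (1.72-fold) at the bottom, and the forage and grain lines of each gene overlap.

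Ratios of read counts within a library do not depend on its scaling. The ratio of COL1A1 to COL3A1 was 0.736, 0.560, 0.557, 0.509 and 0.857 in forage_control and 0.901, 0.923, 0.563 and 0.631 in forage_PHY. On grain it was 0.384, 0.358, 0.626, 0.697 and 0.474 in the controls and 0.248, 0.404, 0.668 and 0.685 with PHY. The forage libraries rich in matrix RNA thus had more COL1A1 for each COL3A1 read, while 5 grain libraries lay below every forage library. Collagen IV chains kept a steadier ratio, with COL4A1 to COL4A2 at 1.44 ± 0.139 on forage and 1.45 ± 0.171 on grain (SD, n = 9 each). The ratio of COL5A1 to COL5A2 was 0.335 in forage_control 4 and 0.371 in forage_PHY 3 and between 0.606 and 1.28 in the other libraries. The ratio of COL12A1 to COL14A1 ran from 0.521 to 3.51 on forage and from 1.48 to 2.54 on grain. COL6A1 to COL6A2 was 0.943 ± 0.0849 on forage and 0.821 ± 0.129 on grain. In RefSeq's table of assembly ARS-UCD2.0, COL4A1 and COL4A2, COL6A1 and COL6A2, and COL3A1 and COL5A2 are direct neighbours, with 0 entries between them.

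**Figure D4:**
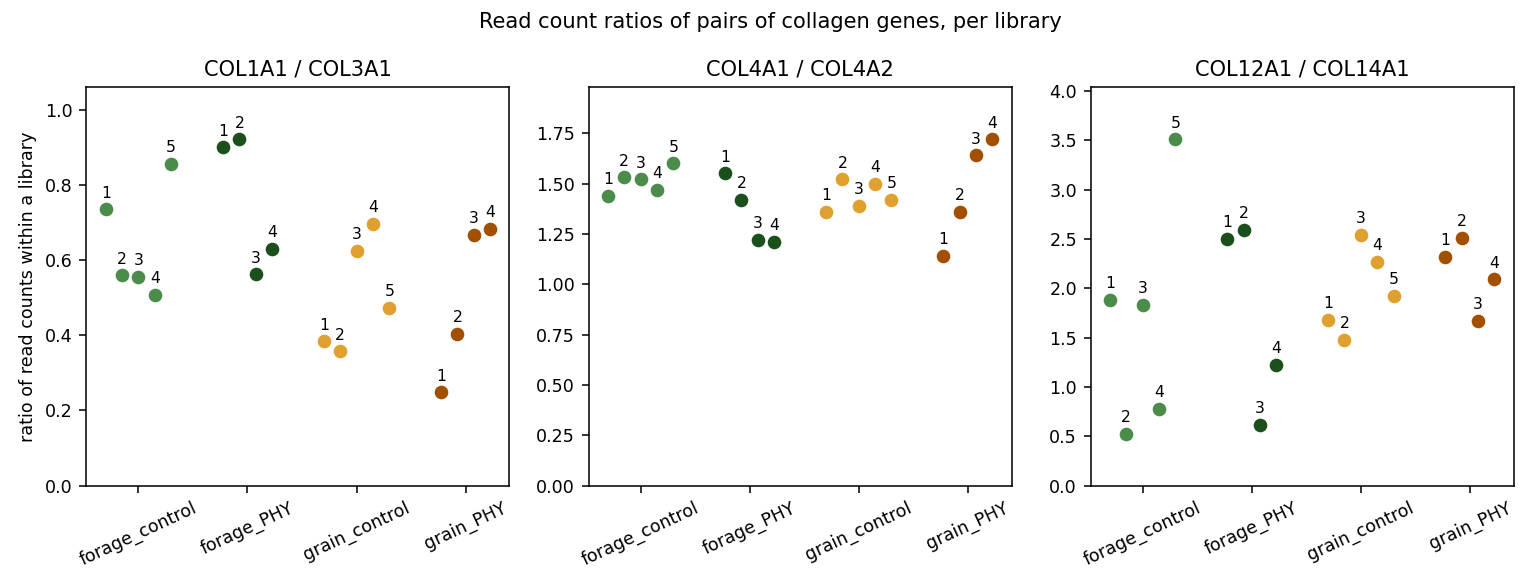
Ratios of read counts of 3 pairs of collagen genes within each library, by group; points are libraries numbered by replicate. COL1A1 over COL3A1 reaches 0.923 on forage and falls to 0.248 in grain_PHY 1, COL4A1 over COL4A2 stays between 1.14 and 1.72, and COL12A1 over COL14A1 runs from 0.521 to 3.51.

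The study's design asks how the change to grain alters papilla RNA, and 0 of the 37 genes were called for it by edgeR (quasi-likelihood F test, Benjamini-Hochberg adjusted p under 0.05 over 22202 genes). Of all genes tested, 31.9% were called, 18.1% higher and 13.8% lower on grain, and 33.7% of those that averaged 5 CPM or more. An unadjusted p under 0.05 was found for 2 of the 37, HSPG2 and LAMA4. Of all genes tested 11166 of 22202 had such a p, and 5309 of 10361 of those that averaged 5 CPM or more. HSPG2 was lower on grain by a log2 fold change of -0.47 ± 0.21 (SE; edgeR adjusted p = 0.0814), and LAMA4 was higher by 0.46 ± 0.22 (edgeR adjusted p = 0.0913). LAMA4 passed in DESeq2 (0.54, adjusted p = 0.0458; 37.5% of genes called) and in limma voom with quality weights (0.53, adjusted p = 0.0262; 45.7% called). HSPG2 passed in edgeR without forage_control 2 (-0.54, adjusted p = 0.0444), where 42.6% of all genes were called.

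Across the 37 genes the log2 fold changes on grain ran from -0.47 to 0.46 with a median of -0.0027, where 17 were above 0 and 20 below. The median was 0.20 over all genes tested and -0.34 over those of at least 5 CPM. Next to LAMA4, the most positive were LOX at 0.46 ± 0.34, VCAN at 0.38 ± 0.37, COL3A1 at 0.35 ± 0.42 and PDGFRA at 0.22 ± 0.23. After HSPG2, the most negative were POSTN at -0.31 ± 0.27, COL14A1 at -0.30 ± 0.21, MMP2 at -0.30 ± 0.43 and COL1A1 at -0.27 ± 0.55. Their edgeR adjusted p ran from 0.232 for COL14A1 to 0.689 for COL1A1. The median SE of the 37 genes was 0.31, against 0.19 for genes of at least 5 CPM, so that changes called in other genes of this abundance could be missed here. The signs depended on the scaling and on the model. With DESeq2 size factors in edgeR 27 were positive and 10 negative, and with voom quality weights 33 and 4, with a median of 0.33. With the summed olfactory receptor CPM as a covariate in edgeR 36 were positive and 1 negative, with a median of 0.74 against 0.03 for all genes. With this covariate 0 of the 37 were called. An unadjusted p under 0.05 was found for 6, against 1032 of 22202 genes tested. The covariate itself differed by diet, with a median of 22.7 CPM on forage and 76 on grain. Its part and that of diet therefore cannot be fully told apart, here and wherever it is used below. The groups overlapped in every one of the 37 genes, while the 9 forage and 9 grain libraries did not overlap in 0.207% of all genes.

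The calls over all genes rested on few libraries. Without grain_PHY 1, edgeR called 1 of 22479 genes (0.00445%), and without the 3 libraries of highest olfactory receptor CPM it called 0 of 21399. In these runs 8019 and 4136 genes still had an unadjusted p under 0.05, against 11166 of 22202 in the main fit. With the olfactory receptor covariate edgeR called 0 of 22202, with 1032 at an unadjusted p under 0.05. The 0 calls among the 37 genes therefore stand beside a background share of genes passing the adjusted threshold that moves from 31.9% to near 0.

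In the other 5 contrasts edgeR called 0% of all genes and 0 of the 37, with 0 of the 37 at an unadjusted p under 0.05 in each. Of the 22202 genes tested, 2518 had such a p for diet in control cows and 8820 for diet in PHY cows. The counts were 356 for PHY on forage, 571 for PHY on grain and 442 for the difference of diet responses. In DESeq2 and voom the diet contrast in PHY cows reached 22.6% and 35.7% of all genes, and 0 of the 37. In edgeR that contrast reached 24% of genes when fitted on the PHY groups alone, 7.56% without forage_control 5 and 6.64% without grain_control 1, again with 0 of the 37. Grain against forage gave a median log2 fold change of 0.21 in control cows and -0.16 in PHY cows. Leaving out 1 library at a time, these medians ran from 0.06 to 0.62 and from -0.51 to 0.10. The difference of these diet responses had a median of -0.42 (-0.80 to -0.16 with 1 library left out), negative in 36 of 37 genes, with a smallest edgeR adjusted p of 0.954. Of the genes that averaged 5 CPM or more, 7888 of 10361 were negative too, with a median of -0.21. PHY against control on grain gave a median of 0.14, which turned to -0.02 without grain_PHY 2 and reached 0.36 without grain_PHY 1. These contrasts share libraries with one another.

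On forage, all 37 genes had a higher fitted level in forage_PHY than in forage_control, with log2 fold changes from 0.04 (LAMB1) to 1.09 (TNC) and a median of 0.48. The edgeR adjusted p was 1 for each, and the median of all genes was -0.02. Of the genes that averaged 5 CPM or more, 7083 of 10361 were positive, with a median of 0.08. The fold change was 1.03 ± 0.77 (SE) for COL1A1, 1.01 ± 0.58 for COL6A2, 0.91 ± 0.61 for MMP2 and 0.87 ± 0.59 for COL3A1. The genes are not independent, as most shared the order of libraries given above, and in that order 2 of the 4 forage_PHY libraries and 1 of the 5 forage_control libraries were the high ones. Without forage_control 5 the median was 0.92, without forage_PHY 2 it was 0.27 with 31 of 37 positive, and with voom quality weights it was 0.23 with 32 of 37 positive.

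**Figure D5:**
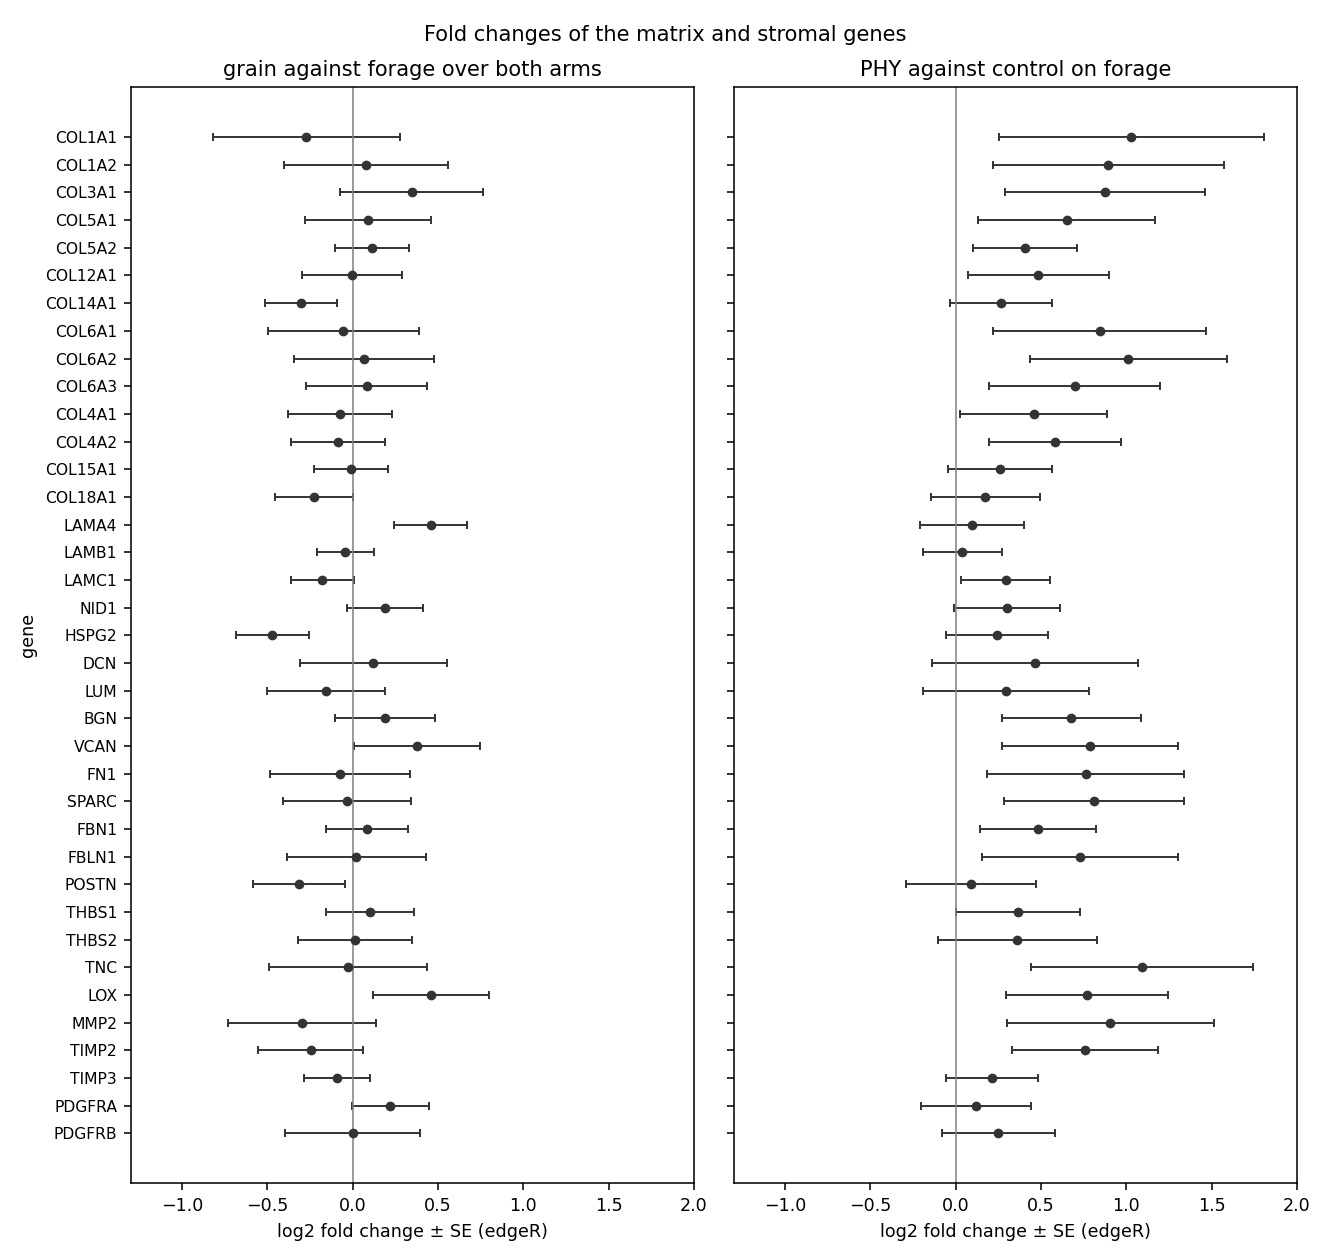
Log2 fold change ± SE of each gene from edgeR, grain against forage over both arms (left) and PHY against control on forage (right), in order of role. Diet fold changes lie on both sides of 0, from -0.47 to 0.46, and those of PHY on forage run from 0.04 to 1.09, with 0 genes called in either.

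Genes that make, cut and sense the matrix were taken from further lists, chosen with earlier results of these data known. Called counts for grain against forage (edgeR) are given beside the 31.9% of all genes, and 0 of the genes of these lists were called without grain_PHY 1 or with the olfactory receptor covariate. Of the called genes named from these lists, BMP1, SKI, ACAN and ITGB3 changed sign with that covariate, to 0.02, 0.06, -0.02 and -0.10. Most of the other called genes named kept their sign with a smaller fold change. COL13A1, ECM1, MMP14 and SDC1 came to 0.03, -0.05, -0.13 and -0.13, while TGFB3 stayed at 1.23 and CCN1 rose to 1.48. Of the genes named that were not called, P4HB, LOXL1 and ITGB1 did so, to 0.17, 0.38 and 0.42. Of 26 genes of collagen synthesis and crosslinking, 4 were called higher and 1 lower, with a median of 0.15. ADAMTS14, a procollagen N-propeptidase, rose from 1.43 ± 0.939 to 5.59 ± 3.77 CPM (SD over 9 libraries each), or by 2.03 on the log2 scale (edgeR adjusted p = 0.0201). LOXL3, a lysyl oxidase relative, rose by 0.81, and BMP1, which removes the C-propeptide of collagens, fell by 0.49 on the log2 scale. With DESeq2 size factors BMP1 was not called (adjusted p = 0.0505 in edgeR). SERPINH1, the collagen chaperone, was at 75.8 ± 23.9 and 78.5 ± 23.7 CPM, and P4HB, a subunit of prolyl 4-hydroxylase, at 179 ± 52.9 and 131 ± 42 (edgeR adjusted p = 0.0762). LOXL1, which crosslinks elastin, was at 8.65 ± 6.43 and 7.30 ± 2.03 CPM.

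Of 26 genes of TGF-beta signalling, the main fibrogenic pathway, 3 were called higher and 7 lower, with a median of -0.15. The ligand TGFB1 fell from 16.3 ± 3.92 to 11.4 ± 2.87 CPM (log2 fold change -0.56, edgeR adjusted p = 0.0231), while the ligand TGFB3 rose from 1.54 ± 0.608 to 5.47 ± 2.25 (1.82, edgeR adjusted p = 0.0201). LTBP4, which stores latent TGF-beta in the matrix, fell by 0.59 on the log2 scale. The pathway's repressors SKIL and SKI fell by 0.62 and 0.57, and CCN1, a matricellular protein, rose by 0.88. The induced target TGFBI was at 23.5 ± 14.5 and 25.5 ± 8.01 CPM and was not called.

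Of 44 other matrix proteins, 12 were called higher and 1 lower, with a median of 0.34. COL11A1, ACAN and COL13A1 rose by 1.63, 1.58 and 1.13 on the log2 scale, from means of 3.10, 2.02 and 2.79 CPM on forage. COL11A1 and ACAN encode a collagen and the main proteoglycan of cartilage. ECM1, a secreted protein of skin, fell from 379 ± 86 to 219 ± 80.8 CPM (log2 fold change -0.80). ELN, elastin, was at 27.2 ± 16.8 and 35.8 ± 14.6 CPM, and COL7A1, the anchoring fibril collagen, at 273 ± 48.6 and 186 ± 78 (edgeR adjusted p = 0.0754). Of 17 laminins, basement membrane collagens and related genes outside the set, 5 were called higher and 1 lower, with a median of 0.11. COL17A1, the hemidesmosome collagen of basal keratinocytes, fell from 689 ± 92.7 to 461 ± 120 CPM (-0.58, edgeR adjusted p = 0.0335), and COL4A3 and FRAS1 rose by 1.60 and 1.42 on the log2 scale from means of 4.09 and 6.72 CPM on forage. The epithelial laminin chains LAMA3 and LAMA5 were at 309 ± 36.2 and 109 ± 14.6 CPM on forage and 217 ± 66.4 and 78.1 ± 22.4 on grain, and were not called (edgeR adjusted p = 0.0526 and 0.0514).

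Of 28 matrix proteases and inhibitors, 3 were called higher and 2 lower, with a median of 0.53. MMP14, the membrane protease that activates MMP2, fell from 86 ± 15.8 to 56.7 ± 15.8 CPM (-0.61, edgeR adjusted p = 0.0241), MMP15 fell by 0.70 on the log2 scale and ADAMTS4 rose by 0.90. Of 29 matrix receptors, 4 were called higher and 6 lower, with a median of -0.17. The collagen receptors ITGA11 and DDR2, known from fibroblasts, rose by 1.2 and 0.58, and ITGB3 by 0.62. SDC1, ITGB4 and ITGB6, which are receptors of epithelial cells, fell by 0.80, 0.72 and 0.59 on the log2 scale. ITGB1, the common β1 chain, was at 111 ± 33.7 and 93.7 ± 28.9 CPM and was not called.

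Marker lists of the cells a papilla biopsy can hold were summed per library on the effective size, leaving out the 37 genes, and all of their matched genes were detected. The sum of 16 smooth muscle and pericyte markers was 798, 971 and 918 CPM in forage_control 5, forage_PHY 1 and forage_PHY 2 and 421 to 643 in the other forage libraries. For 18 endothelial markers the values in these libraries were 531, 418 and 452, within or above the 230 to 430 of the others, and for 14 fibroblast markers 626, 562 and 582, with 323 to 582 in the others. The 14 basal epithelial markers were at 16300, 12800 and 13700 CPM in them and at 9410 to 15700 in the others, so the reads of the 37 genes over those of the basal markers were 0.353, 0.468 and 0.440 there. That ratio was 0.0999 in forage_PHY 3, the lowest, and between 0.200 and 0.506 on grain. The part of tissue makeup in the levels of the 37 genes was not tested.

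For grain against forage the lists moved in different ways. Their counts stand beside 18.1% of all genes called higher and 13.8% called lower. Without grain_PHY 1, or with the olfactory receptor covariate, 0 genes of these marker lists were called. Of the fibroblast markers 6 of 14 were called higher and 0 lower (edgeR), with C3, DPT and C7 at 0.77, 0.90 and 0.85 on the log2 scale. In all, 9 of the 14 were positive and 5 negative, GSN and S100A4 the most at -0.51 and -0.50 (edgeR adjusted p = 0.0827 and 0.0893), and the summed level had a median of 498 CPM on forage and 393 on grain. Smooth muscle and pericyte markers were called higher in 2 of 16, endothelial in 1 of 18, and neither list had a gene called lower. All 14 basal epithelial genes had negative fold changes (7 of 14 with the olfactory receptor covariate), and 3 were called lower; KRT14, a basal keratin, was at 3390 ± 1380 and 2470 ± 1350 CPM and was not called. Of upper epithelial markers 7 of 16 were called higher and 2 lower, of macrophage markers 6 of 14 higher, of nerve and glia 2 of 9 gene entries higher and of skeletal muscle 8 of 9 higher, though 5 of 9 in each of the last 2 lists were negative with that covariate. Skeletal muscle markers summed to 7.24 to 39.4 CPM on forage and 18.8 to 98.5 on grain, and were highest in grain_control 1 and grain_PHY 1, 2 of the 3 libraries with the most olfactory receptor reads. The vessel marker VWF was at 90 ± 22.9 and 73.3 ± 20 CPM and was not called.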

How the data were processed

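Rumen papillae RNA of 18 libraries was analysed. Per the labels' protocols, libraries were made from 10 ng of total RNA with a stranded total RNA kit. The deposited table holds raw read counts per gene. Per the submitters' processing notes, bcl2fastq 2.20, DESeq2 (version not given) and the build bosTau9 were used; how reads were aligned, counted and assigned by strand is not given in the sources used here, so reads of overlapping or antisense genes could be shared. The deposited normalized table was not used.

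Counts were tested with edgeR 4.0.16 (R 4.3.3; filterByExpr by group, TMM, robust quasi-likelihood F test, 1 mean per group, all 18 libraries), with adjusted p under 0.05 over 22202 genes. The common biological coefficient of variation was 51.4%. DESeq2 1.42.0, limma 3.58.1 voom with quality weights, other filters and scalings, a covariate and left-out libraries were alternatives. CPM used effective library sizes and log2 CPM a prior of 2 reads. Sums over all 37 genes and over the olfactory receptor genes used total reads unless stated. Sums by role and by marker list used effective library sizes. Gene symbols are those of the table. Libraries of a group are numbered in accession order. The model was also run on simulated data with independent libraries and a smaller spread than in these data, so that run does not bear on the calls given here.

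Members and lists were chosen with earlier results of these data known. All members are accounted for; values per library are given for the 2 of highest mean in each role and the 5 largest changes per direction for diet. From each further list up to 3 called genes per direction with a mean of at least 5 CPM, and a preset group of genes, could be named; for the lists of cell markers only examples are printed. A gene that this rule names is not reported here. Genes named as the exceptions to a count were named after their values were seen. Precision is limited by 4 or 5 libraries per group and by depths of 3.95 M to 34.5 M reads (M, units of 1000000).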

Additional observations from a re-analysis of the deposited data

Results flagged for a closer look

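In 156 sets of libraries (a gene or the summed level within 1 group), 9 had a library far from the rest of its group by Dixon's test, and chance alone flags about 1 in 20. In forage_control the fifth library was far above the other 4 for COL1A2 (427 CPM, next 144), COL5A2 (118, next 71.3), FN1 (210, next 58.9), SPARC (255, next 94.2) and the summed level of the 37 genes on total reads (5240, next 2210). These 5 come from 1 library and are not independent. LAMB1 was low in forage_control 2 (34.1 CPM, next 48.4), and TIMP3 was low in forage_PHY 3 (28.6, next 35.2). COL14A1 was high in grain_control 2 (116 CPM, next 66.1), and PDGFRA was high in grain_control 3 (41.5, next 27.2).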

How the results depend on the processing

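The alternatives for counts of calls and named genes were set out with earlier results known; medians over the 37 genes, counts of spread and the order of libraries were added after seeing the data. For grain against forage, 1 of the 37 genes was called with the stricter filter (at least 1 CPM in 9 libraries; LAMA4, 0.61, adjusted p = 0.0363; 30.4% of all genes called), with DESeq2 (1; 37.5%) and with voom (1; 45.7%), and 0 to 1 when 1 library was left out (0.00445% to 43.3%). In the other contrasts 0 of the 37 were called under every alternative run, where the share of all genes was 0% except for 6.64% to 35.7% in 5 of the runs for PHY cows. The median log2 fold change was 0.74 with the olfactory receptor covariate, and 0.63 with it in PHY cows (all genes 0.03 and 0.01); leaving out 1 library gave -0.15 to 0.23 over both arms and -0.51 to 0.10 in PHY cows. HSPG2 turned to 0.055 with the covariate, POSTN to 0.061 with voom and 0.20 with the covariate. MMP2 turned to 0.32 with voom, 0.87 with the covariate and 0.0006 without the 3 libraries of highest olfactory receptor CPM, and ran from -0.48 to 0.064 when 1 library was left out. COL1A1 turned to 0.59 with voom and 1.2 with the covariate, and ran from -0.47 to 0.22; both turned without forage_control 5. The cause was not tested. The grain range of the summed level was 3.18-fold on the effective size. The 3 leading forage libraries led in 34 of 37 genes on total reads and in 27 with DESeq2 size factors. The shares of all genes at these settings are not given here. No paired analysis was possible because the labels give no cow for a library, and the numbers used here only follow accession order.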
